A study of Homo sapiens with 9 samples.

Results

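The replication-dependent histone genes supply the histones that package newly copied DNA. They were taken here as every gene whose symbol begins HIST1H, HIST2H, HIST3H or HIST4H, and 63 of the 17123 genes of the deposited table met that rule. By histone class they are 5 linker histone H1 genes, 15 H2A, 17 H2B, 13 H3 and 13 H4 genes. They lie in 4 groups on the genome: 50 HIST1 genes on chromosome 6, 10 HIST2 and 2 HIST3 genes on chromosome 1, and HIST4H4 on chromosome 12. Levels were measured as FPKM, a fragment count divided by transcript length and by library size, by RNA sequencing of LX-2 cells, an established human hepatic stellate cell line.

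The 9 libraries form 3 groups of 3, and the cells of all of them, controls included, had received TGFβ1 at 10 ng/ml. The groups were transfected with a negative control siRNA, with siRNA against LOX or with siRNA against LOXL1, the genes of enzymes that cross-link collagen and elastin outside the cell. Each targeting siRNA was given at 25 nM for 48 hours, and no source used here gives the control dose. Control replicate 3 is labelled as negative control with no mention of siRNA and was grouped by its title. There was no group without TGFβ1 and no untransfected group, all cells are of 1 line, and no label states that replicates are separate cultures. The p-values thus reflect only how far these libraries vary, part of which may be technical.

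Cells make most of the mRNA of these genes in S phase, when DNA is copied, under the transcriptional coactivator NPAT. The transcripts lack introns and end, unlike almost all other mRNAs, in a short stem-loop instead of a poly(A) tail; the stem-loop binding protein SLBP holds that structure, and the U7 snRNP guides the cut behind it. Some of these genes are also known to give longer, polyadenylated transcripts, which matter most in cells that divide little. A library made from poly(A) RNA would see mainly the second kind, and a library from total RNA both. The labels name total RNA as the extracted molecule, but no source used here says how RNA was selected for the libraries, so the part of poly(A) selection in the levels below was not tested.

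The stem-loops are shown because they are what sets these mRNAs apart. In GENCODE v29 transcripts of GRCh38, 31 of the 63 members held the motif with at most 1 mismatch and 30 held it exactly, searched on the transcript strand, against an exact match in 52 of all 19702 protein-coding genes, or 0.264%. That wider count takes in the members annotated as protein-coding. It searched whole protein-coding transcripts, while members were searched only beyond a set distance from the transcript's start. The 16-letter motif reads GG, 2 free letters, CTTTT, 1 free letter, AG, 2 free letters and CC. The 5 exact forms follow, 5′ to 3′ in DNA letters, with both arms of the stem in capitals and the loop in lower case.
Form in 17 members (6 H2A, 8 H2B, 3 H3): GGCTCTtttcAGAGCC
Form in 5 H4 members: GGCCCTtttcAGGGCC
Form in 4 members (3 H2B, 1 H3): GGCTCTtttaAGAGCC
Form in 3 H4 members: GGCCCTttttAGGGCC
Form in HIST1H2AG: GGCTCTtttcAGGGCC
Both H4 forms have the same stem and differ in the loop, while the commonest form ran across H2A, H2B and H3. The annotation of 23 members ran more than 100 bases past the stem-loop and that of 8 ended within 100 bases of it. That of the other 32, HIST1H2BK and HIST1H1C among them, held no match. Only transcripts holding a match were measured, and a member can have others. A missing match says only that the annotated transcript does not hold these letters. For HIST1H2BK and HIST1H1C the longest GENCODE transcript, 381 and 642 bases, is only as long as the coding sequence. A stem-loop past it could not be found there.

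Of the 63 members, 38 reached an FPKM of 1 in at least 3 of the 9 libraries, which is 60.3%, against 69.0% of all genes in the table. These 38 were tested between groups. Another 7 reached 1 in fewer libraries, 18 never did, and 29 reached it in all 9. Per library, 33 to 39 members stood at 1 or more and 7 to 12 were listed at 0; no member was listed at 0 in all libraries. H2A had the highest share of tested members, 11 of 15, followed by H3 with 9 of 13, H2B with 10 of 17, H4 with 7 of 13 and H1 with 1 of 5. By cluster, all 10 HIST2 genes were tested, against 26 of 50 HIST1 genes, 1 of 2 HIST3 genes and HIST4H4. The 10 HIST2 genes hold 7 distinct measurements, since some H2A, H3 and H4 genes there are listed in pairs with identical values. With each such pair counted once, 35 of 60 members were tested, or 58.3%. The median of the members' mean levels was 1.45 FPKM, and 11 members had a mean of 10 or more.

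**Figure D1:**
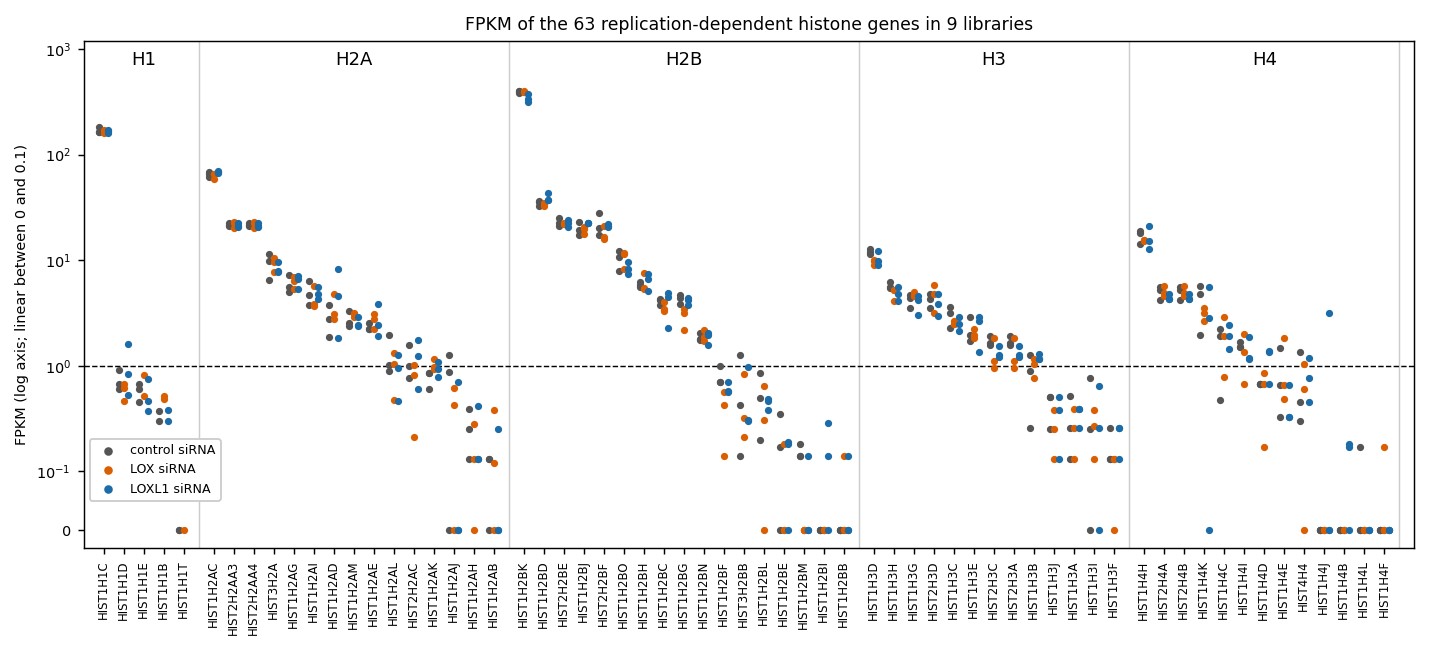
FPKM of all 63 members by histone class, each point 1 of the 9 libraries, coloured by siRNA group; the axis is logarithmic above 0.1 and linear below, and the dashed line marks an FPKM of 1. HIST1H2BK and HIST1H1C stand above 100 in every library, and every class also holds members below 1 in all or most libraries.

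A few genes carried most of the signal. The members summed to 907.5 ± 23.9 FPKM (SD, n = 3) in the control group, which is 0.230% to 0.237% of all FPKM in those libraries, and over all 9 libraries the share was 0.211% to 0.237%. Of the sum averaged over all 9 libraries, 883.8 FPKM, HIST1H2BK alone gave 42.7%, the 2 highest members 61.6% and the 10 highest 87.0%. H2B genes held 57.0% of that average, H1 19.1%, H2A 16.1%, H4 3.98% and H3 3.87%. The FPKM of a class is a level of RNA per length and not of protein, and in bulk RNA fewer cells of a kind, such as cells in S phase, and less RNA per cell cannot be told apart.

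H1, the linker histone that sits where DNA enters and leaves the nucleosome, was represented by 1 gene. HIST1H1C (chr6:26055740-26056471, minus strand), which encodes H1.2, was listed at 162.4, 181.9 and 165.7 FPKM in control libraries, at 171.0, 167.0 and 159.3 with LOX siRNA and at 169.6, 160.8 and 167.9 with LOXL1 siRNA. The groups overlapped and each pair of means differed by less than 3% (LOX siRNA against control -2.49%, LOXL1 siRNA against control -2.28%). The other 4 H1 genes had means of 0.768 (HIST1H1D), 0.533 (HIST1H1E), 0.293 (HIST1H1B) and 0.080 FPKM (HIST1H1T, the testis form). HIST1H1D reached 1 in 1 library, LOXL1 siRNA replicate 3 with 1.61, and the other 3 never did.

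H2A, the core histone that pairs with H2B, was led by HIST1H2AC (chr6:26124145-26124690, plus strand). It was listed at 60.9, 66.2 and 68.2 FPKM in control libraries, 66.1, 66.0 and 58.7 with LOX siRNA, and 68.0, 69.4 and 67.2 with LOXL1 siRNA. The LOX siRNA libraries all lay below those with LOXL1 siRNA (difference -0.10 on the log2(FPKM + 1) scale, standard error 0.05, limma adjusted p = 0.430), and both overlapped the controls. HIST2H2AA3 and HIST2H2AA4 followed with a mean of 21.7 FPKM each; the table gives both symbols the same coordinates and the same value in every library, so they are 1 measurement. HIST3H2A had a mean of 9.0 FPKM, with a lowest library of 6.54 and a highest of 11.3, both in the control group.

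H2B, the partner of H2A, held the highest member. HIST1H2BK (chr6:27138293-27146858, minus strand), the gene of H2B type 1-K, was listed at 398.7, 400.0 and 382.5 FPKM in control libraries, at 400.4, 393.3 and 388.9 with LOX siRNA and at 339.6, 314.8 and 374.5 with LOXL1 siRNA. It ranked 131 by mean level in the whole table. HIST1H2BD had a mean of 36.0 FPKM, HIST2H2BE of 22.6 and HIST1H2BJ of 20.6. HIST2H2BE was nearly even across the groups, at 23.0 ± 2.07, 22.2 ± 0.0666 and 22.4 ± 1.62 FPKM (control, LOX siRNA, LOXL1 siRNA; SD, n = 3).

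H3 and H4, which form the tetramer at the core of the nucleosome, were low by comparison. The highest H3 gene, HIST1H3D, had a mean of 10.7 FPKM, followed by HIST1H3H with 5.16, HIST1H3G with 4.29 and HIST2H3D with 4.22. The listed range of HIST1H3D encloses that of HIST1H2AD, an H2A gene on the same strand, and shares 510 bases with it, so fragments from the shared stretch could be counted for either. The highest H4 gene, HIST1H4H, was listed at 18.1, 18.8 and 14.3 FPKM in control libraries, 15.4, 15.6 and 15.3 with LOX siRNA and 21.2, 12.8 and 15.2 with LOXL1 siRNA. Its LOXL1 siRNA libraries held both its highest and its lowest value. HIST2H4A and HIST2H4B (mean 4.83 FPKM) again share coordinates and values, as do the H3 genes HIST2H3A and HIST2H3C (mean 1.45 FPKM).

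Next to a mean of 1 FPKM lay 3 members on each side. Above were HIST1H3B with 1.001, HIST1H2AL with 1.04 and HIST1H4I with 1.44, and below were HIST2H2AC with 0.996, HIST1H2AK with 0.910 and HIST1H4D with 0.796. HIST1H4I lies on the opposite strand within the listed range of HIST1H2BK. That range is 8566 bases and its longest listed transcript 839, so the transcripts themselves need not overlap. No source used here says whether counting used the strand, and whether reads were shared by the pair was not tested.

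What an FPKM of 1 means in fragments is small for genes this short. The longest listed transcript of a member had a median of 467 bases, against 3014 over the table. The lowest values above 0 of 192 low genes, read as 1 fragment each, gave 57.8 to 60.2 FPKM times bases per library, on which an FPKM of 1 is 8.01 fragments for the median member. The table holds no read counts, so this is a reading of the values and no counting interval is given. On the same reading the mean of HIST1H2BK is 5423 fragments and that of HIST1H4C, an H4 gene, 11.8.

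**Figure D2:**
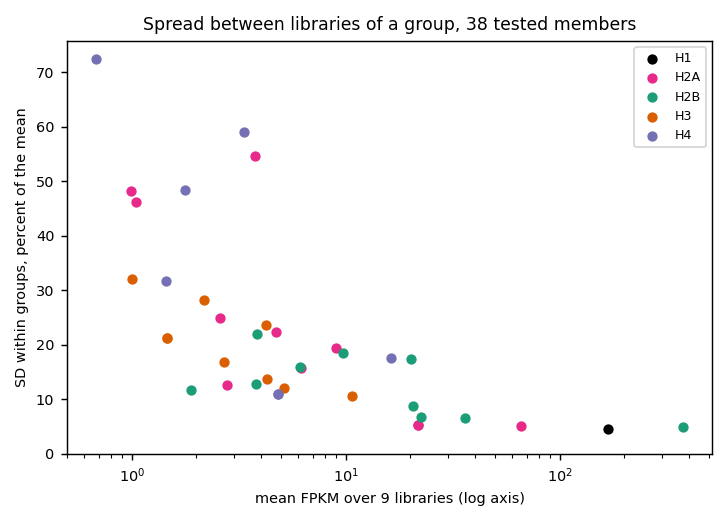
Standard deviation within groups as a percent of the mean (pooled over the 3 groups of 3) against the mean FPKM over 9 libraries (logarithmic axis), 1 point for each of the 38 tested members, coloured by class. The 11 members at 10 FPKM or more lie between 4.44% and 17.6%, and the 22 under 5 FPKM between 11% and 72.4%.

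The spread between libraries followed the level. The 11 tested members with a mean of 10 or more had a within-group SD of 4.44% to 17.6% of the mean, with a median of 6.58%, and the 22 with a mean under 5 had 11% to 72.4%, with a median of 23.0%. HIST1H4C, for example, was listed at 1.91, 2.22 and 0.470 FPKM in the controls.

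Length and level went together among the members outside H1. Only 5 of these 58 genes, HIST1H2BK, HIST1H2BD, HIST2H2BE, HIST2H2BF and HIST1H3D, have a listed range over 700 bases, which is longer than the compact histone gene. The 5 had a median of 22.6 FPKM and were all among the 11 highest of the 63, while the other 53 had a median of 1.45. The highest of those 53 was HIST1H2AC. The bound of 700 bases was set after the values were seen, and the comparison is a description with no test.

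Many members encode the same protein as another, and long runs of shared bases can limit how fragments are assigned. In the GENCODE coding sequences, the 13 H4 genes encode 1 protein and the 13 H3 genes 2, while the 15 H2A genes encode 9, the 17 H2B genes 13 and the 5 H1 genes 5. The coding sequences themselves differ more: 11 are distinct among H4, 12 among H3, 14 among H2A and 17 among H2B. The longest run of bases shared exactly with another member of the class had a median of 38 in H4, 41 in H3, 62 in H2A and 86 in H2B. It reached 100 bases in 4 H4, 3 H3, 5 H2A, 4 H2B and 0 H1 genes, so shared runs of that length were limited to a part of the members. The bound of 100 bases was a setting not matched to the read length. How many members have fragments that fit several genes was thus not tested. No source used here says how the authors treated fragments that fit several genes.

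The clearest case is HIST1H4J and HIST1H4K, named after their values were seen, whose coding sequences are identical over all 312 bases. HIST1H4K was listed at 1.94 to 5.65 FPKM in 8 libraries and at 0 in LOXL1 siRNA replicate 1. HIST1H4J was listed at 0 in those 8 libraries and at 3.17 in LOXL1 siRNA replicate 1. In each library, then, the whole signal stood under 1 of the symbols, and their sum ran from 1.94 to 5.65 FPKM with a median of 3.19. The fold change of HIST1H4K between groups (LOXL1 siRNA against control -0.72 on the log2(FPKM + 1) scale, limma adjusted p = 0.642) was 0.051 without that library.

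Most H2A and H2B genes lie head to head as divergent pairs. Among the members, 12 pairs had starts on opposite strands within 1000 bases, in fact 224 to 323 bases apart, and 11 of them joined an H2A with an H2B gene. HIST1H2BF stands in 2 of the pairs, since HIST1H2AD and HIST1H3D are listed with the same start. In 10 pairs the ranges of both genes over the 9 libraries did not overlap. Both genes were tested in 5 pairs, and there the higher exceeded the lower by 1.46- to 22.7-fold in mean FPKM. In the other 7 a gene lay under the filter, in 3 of them listed at 0 in some libraries, and levels are given without a fold. HIST1H2BK had 377 FPKM and its partner HIST1H2AH 0.207, with starts 224 bases apart. HIST2H2BE had 22.6 and HIST2H2AC 0.996. The order was the other way at HIST1H2AC with 65.6 and HIST1H2BC with 3.86, and at HIST3H2A with 9.0 and HIST3H2BB with 0.531. The H2B gene was the higher in 6 of the 11 pairs.

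**Figure D3:**
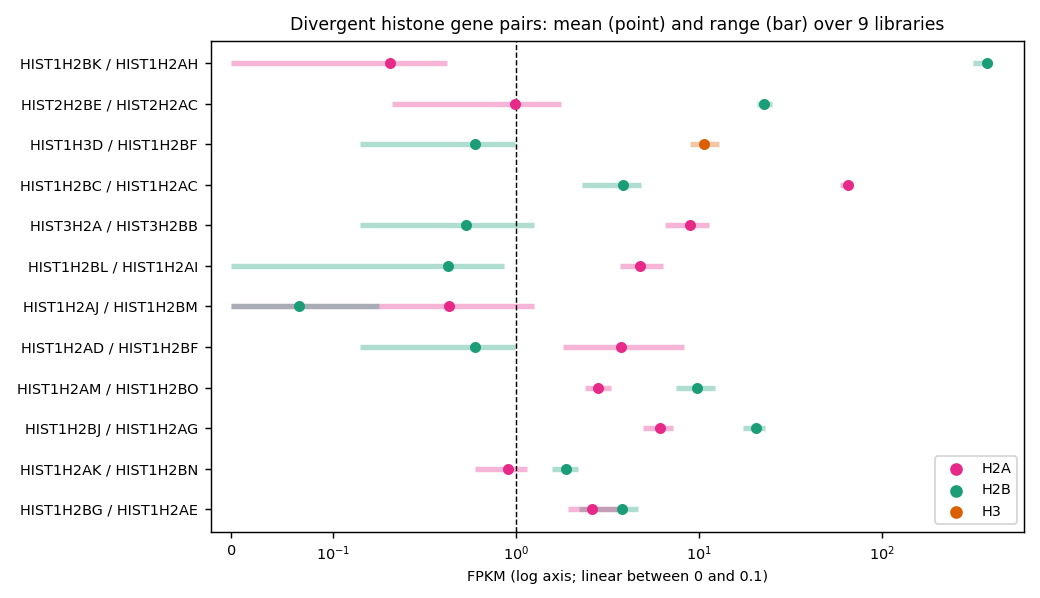
Mean FPKM (point) and range over the 9 libraries (bar) of both genes of each divergent pair, coloured by class; the axis is logarithmic above 0.1 and linear below, and the dashed line marks 1 FPKM. HIST1H2BK and HIST1H2AH, at 377 and 0.207, stand farthest apart, and the ranges of HIST1H2BG and HIST1H2AE overlap, as do those of HIST1H2AJ and HIST1H2BM.

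The promoters of the highest members of the H2B and H2A classes are shown because each lies between such unequal partners. Both are RefSeq windows on GRCh38.p14 from 250 bases before to 50 after RefSeq's start of the gene, given 5′ to 3′ on the gene's own strand. Capitals mark the octamer ATTTGCAT, CCAAT and TATAAA on either strand, and adjoining capitals can be overlapping matches.
HIST1H2BK, chr6:27146809-27147108, minus strand: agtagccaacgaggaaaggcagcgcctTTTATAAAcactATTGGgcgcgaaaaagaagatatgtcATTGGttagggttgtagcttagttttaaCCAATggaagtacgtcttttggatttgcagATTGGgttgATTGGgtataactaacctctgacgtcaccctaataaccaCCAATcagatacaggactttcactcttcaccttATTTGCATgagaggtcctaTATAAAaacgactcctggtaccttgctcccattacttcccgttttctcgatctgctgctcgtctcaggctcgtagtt
HIST1H2AC, chr6:26123922-26124221, plus strand: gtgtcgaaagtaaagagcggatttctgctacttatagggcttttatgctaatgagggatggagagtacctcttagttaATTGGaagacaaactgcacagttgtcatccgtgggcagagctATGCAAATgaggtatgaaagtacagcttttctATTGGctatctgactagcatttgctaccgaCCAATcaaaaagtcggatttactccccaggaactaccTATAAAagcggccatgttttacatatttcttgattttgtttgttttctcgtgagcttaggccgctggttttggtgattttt
The first window also contains the listed start of HIST1H2AH.

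The motifs are known elements of histone promoters, and their shares by class are given as counts with no test. The octamer, bound by OCT1, was found in 23 of the 59 members with a RefSeq window, or 39.0%, against 1.80% of the windows of 27305 genes. It stood in 13 of 17 H2B and 9 of 14 H2A windows, in 1 of 11 H3 windows and in none of the 5 H1 and 12 H4 windows. Windows of divergent partners can overlap, and a site in the overlap counts for both genes. The octamer of HIST1H2AC, for example, is also that of HIST1H2BC. All counts here are thus of windows and not of separate sites. CCAAT, the site of NF-Y, was in 50 of 59 windows, 84.7% against 35.7% over all genes, and H4 was the exception with 3 of 12. TATAAA was in 37 of 59, 62.7% against 12%, with 2 of 5 H1, 10 of 14 H2A, 11 of 17 H2B, 8 of 11 H3 and 6 of 12 H4 windows. The octamer was in 8 of the 10 tested H2B genes and in 5 of the 7 that were not tested. A match to a motif is a description of the letters and not evidence of a bound factor.

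The comparison of LOX siRNA with control asks which transcripts follow a lower level of LOX. LOX itself fell from 46.2 ± 2.94 to 28.4 ± 2.67 FPKM (SD, n = 3; limma adjusted p = 6.73e-04). No histone gene passed the test: 0 of the 38 tested members had a Benjamini-Hochberg adjusted p under 0.05 in limma's fit of all 11808 genes, where 1 gene, or 0.00847%, was called. At an unadjusted p under 0.05 there were 2 members, 5.26%, against 6.93% of all genes; both were lower with LOX siRNA, as were 2.56% of all genes, while 4.37% were higher and no member was. The members' median log2 fold change was -0.030, with 17 of 38 above 0, against 0.0035 and 52.2% of all genes. With each library left out in turn the members' median ran from -0.067 (without control replicate 1) to -0.014 (without control replicate 3), and it was -0.049 without LOX siRNA replicate 2. By class the median was 0.015 for the 11 H2A, -0.023 for the 10 H2B, -0.16 for the 9 H3 and -0.13 for the 7 H4 genes.

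The members with the smallest p in that comparison were all lower with LOX siRNA in mean. HIST1H2BG, an H2B gene, was listed at 4.40, 3.84 and 4.66 FPKM in control libraries, at 3.42, 2.20 and 3.17 with LOX siRNA and at 4.40, 4.24 and 3.75 with LOXL1 siRNA. Every LOX siRNA library lay below every library of the other groups. The difference from control was -0.44 (standard error 0.11, limma adjusted p = 0.503). HIST1H3D was listed at 11.9, 12.9 and 11.5 FPKM in controls and at 9.89, 10.1 and 8.95 with LOX siRNA, without overlap (-0.30, standard error 0.09, limma adjusted p = 0.569). HIST1H2AD, which lies within its listed range, went the other way in mean. It had 2.81 ± 0.936 FPKM in controls, 3.56 ± 1.07 with LOX siRNA and 4.91 ± 3.26 with LOXL1 siRNA (SD, n = 3). Whether fragments of the shared stretch were assigned differently between libraries was not tested. HIST1H3H was listed at 5.53, 6.17 and 5.51 FPKM and at 5.25, 5.27 and 4.12, also without overlap (-0.20, standard error 0.10, limma adjusted p = 0.706). HIST1H2BG, HIST1H3D and HIST1H3H were the 3 members of 38, 7.89%, whose groups did not overlap, against 12.8% of all genes. The summed H3 level was 36.9 ± 1.47 FPKM in controls, 32.9 ± 0.376 with LOX siRNA and 32.9 ± 4.40 with LOXL1 siRNA (SD, n = 3). This sum contains HIST1H3D, from 12.1 to 9.64 with LOX siRNA in mean, and HIST1H3H, from 5.74 to 4.88. It counts the identical rows HIST2H3A and HIST2H3C, from 1.71 to 1.31, separately. Of the 9 tested H3 genes 6 were lower and 3 higher, HIST1H3G from 4.21 to 4.73 among them. The sum thus adds no separate support and does not show a shift of the whole class.

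Transcript length moved with the LOX siRNA group. Spearman's rho across genes between a library's deviation from the gene mean and transcript length was -0.285, -0.279 and -0.249 in the LOX siRNA libraries and lay between -0.166 and 0.376 in the other 6. The 93 tested genes with transcripts of up to 600 bases that are not members had a median log2 fold change of 0.074 against control, and 73 of them were above 0. The histone members, most of them as short, had the median of -0.030 given above, and with each library's length trend removed it was -0.065. With the trend removed, HIST1H2BG stood at -0.48, HIST1H3D at -0.34 and HIST1H3H at -0.24 against control, and none was called (limma adjusted p = 0.907, 0.898 and 0.907).

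**Figure D4:**
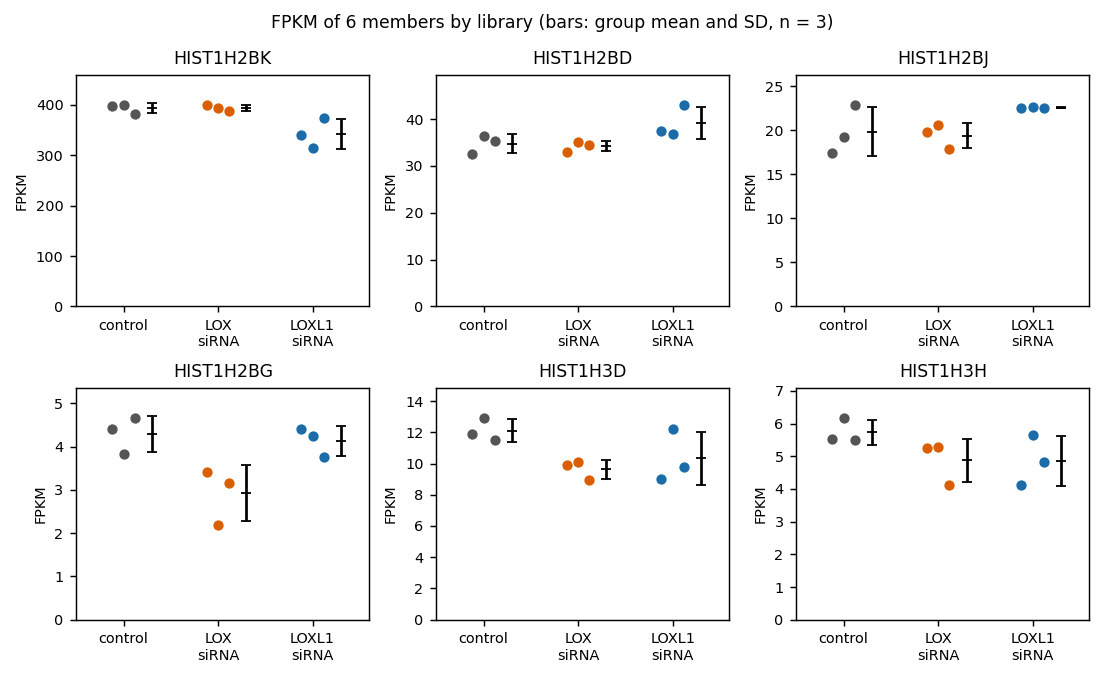
FPKM of 6 members in each library, by siRNA group (points), with the group mean and SD at the right of each group (n = 3); each panel starts at 0. The LOXL1 siRNA libraries of HIST1H2BK lie between 314.8 and 374.5, below the other 6, and the LOX siRNA libraries of HIST1H2BG lie below the other 6.

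The comparison of LOXL1 siRNA with control asks the same for LOXL1, which fell from 12.3 ± 1.11 to 6.80 ± 0.997 FPKM (SD, n = 3; limma adjusted p = 0.00432). Again 0 of 38 members passed, where 9 of all genes, 0.0762%, did. At an unadjusted p under 0.05 there were 4 members, 10.5%, against 10.2% of all genes, with 2 members higher and 2 lower where 3.82% of all genes were higher and 6.41% lower. The members' median log2 fold change was -0.042, with 13 of 38 above 0, against -0.0058 and 46.7% of all genes. By class it was 0.0042 for H2A, -0.024 for H2B, -0.18 for H3 and -0.11 for H4.

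The highest histone gene had the smallest p. HIST1H2BK, whose values per library are given above, had 393.7 ± 9.76 FPKM in controls and 342.9 ± 30.0 with LOXL1 siRNA (SD, n = 3), a difference in mean of -12.9%. All 3 LOXL1 siRNA libraries lay below every library of the other groups. The log2 fold change was -0.20 (standard error 0.05, 95% confidence interval -0.31 to -0.090, limma adjusted p = 0.202). Without LOXL1 siRNA replicate 3, the library nearest to the controls, the difference was -0.27 and the limma adjusted p 0.0289, so whether the gene is called turns on that library; over all alternatives the adjusted p ran from 0.0289 to 0.492.

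HIST1H2BD and HIST1H2BJ, also H2B genes, had higher means with LOXL1 siRNA. HIST1H2BD was listed at 32.5, 36.4 and 35.3 FPKM in controls and at 37.4, 36.9 and 43.0 with LOXL1 siRNA (0.17, standard error 0.06, limma adjusted p = 0.357). HIST1H2BJ was listed at 17.4, 19.3 and 22.9 in controls and at 22.5, 22.7 and 22.6 with LOXL1 siRNA (0.18, standard error 0.08, limma adjusted p = 0.443). The first gene's groups did not overlap and the second's did. HIST1H3D had a mean of 10.3 ± 1.70 FPKM with LOXL1 siRNA (-0.22, standard error 0.09, limma adjusted p = 0.422). In those libraries it was listed at 8.99, 12.2 and 9.78 FPKM, and the overlapping HIST1H2AD at 8.32, 1.82 and 4.59. In the controls, by contrast, both genes were highest in replicate 2. Whether the overlap shaped the HIST1H3D difference was not tested. The groups of 4 members, HIST1H2BK, HIST1H2BD and the identical rows HIST2H3A and HIST2H3C, did not overlap, 10.5% against 14.3% of all genes.

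These H2B values bear on the sums. All members together summed to 888.6 ± 21.0 FPKM with LOX siRNA and 855.1 ± 39.4 with LOXL1 siRNA (SD, n = 3), against the 907.5 ± 23.9 of the controls. Without HIST1H2BK the sums were 513.8 ± 20.0 in controls, 494.4 ± 16.7 with LOX siRNA and 512.1 ± 9.79 with LOXL1 siRNA. Without that gene, the control and LOXL1 siRNA sums differed by less than the SD of either group. The 16 other H2B genes summed to 128.0 ± 3.49, 120.0 ± 6.39 and 132.0 ± 6.55 FPKM in the same order.

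In the direct comparison of LOX siRNA with LOXL1 siRNA, 0 of 38 members passed, where 25 of all genes, 0.212%, did. At an unadjusted p under 0.05 there were 4 members, 10.5%, against 12.8% of all genes, and all 4 were H2B genes. With LOX siRNA 1 of them was higher and 3 were lower, where 8.25% of all genes were higher and 4.56% lower. HIST1H2BK was higher with LOX siRNA in mean (394.2 ± 5.82 against 342.9 ± 30.0 FPKM, 0.20, standard error 0.05, limma adjusted p = 0.134), and without LOXL1 siRNA replicate 3 its adjusted p was 0.0208, with a range over alternatives of 0.0208 to 0.392. HIST1H2BG (-0.40, limma adjusted p = 0.151), HIST1H2BD (-0.19, limma adjusted p = 0.221) and HIST1H2BJ (-0.21, limma adjusted p = 0.285) were lower with LOX siRNA in mean. The groups of 6 members did not overlap, 15.8% against 21.5% of all genes. The members' median was -0.031, with 16 of 38 above 0, against 0.011 and 55.7% of all genes; the median was -0.079 with the length trend removed and 0.0033 or 0.013 without LOX siRNA replicate 3 or LOXL1 siRNA replicate 1. The comparisons share libraries, so their values are not independent of each other.

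**Figure D5:**
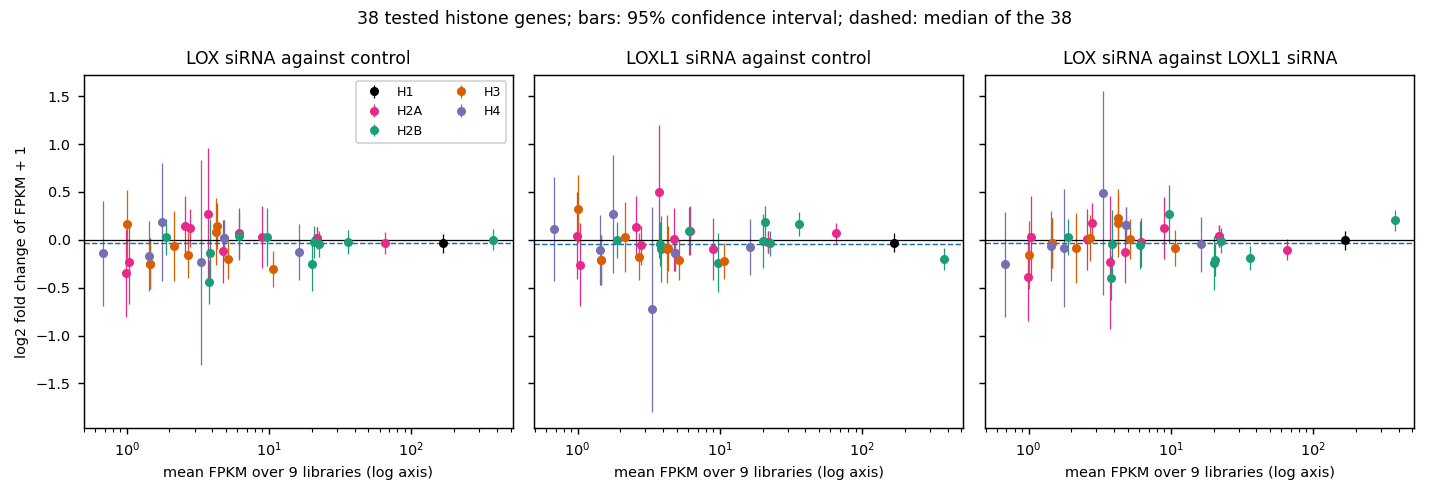
Log2 fold change of FPKM + 1 of the 38 tested members against their mean FPKM (logarithmic axis), 1 panel per comparison, with 95% confidence intervals and points coloured by class; the dashed line is the median of the 38. HIST1H2BK, at the far right, is at -0.20 with LOXL1 siRNA and 0.0019 with LOX siRNA against control, and the intervals widen toward low levels.

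The standard errors set what could be seen. The median standard error was 0.12 for the 38 members and 0.056 over all genes. HIST1H1C was the most precisely measured of the named members, and its 95% intervals of -0.13 to 0.064 (LOX siRNA against control) and -0.13 to 0.067 (LOXL1 siRNA against control) bound how far it could have moved. An adjusted p above the threshold does not show that the groups were alike.

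Most genes around histone supply were tested and none was called. All 20 genes of histone mRNA synthesis and 3′ end processing were tested and 0 passed in any comparison. Over all genes the called shares were 0.00847% (LOX siRNA against control), 0.0762% (LOXL1 siRNA against control) and 0.212% (LOX siRNA against LOXL1 siRNA). At such shares a list this small would rarely hold a called gene, here and for the lists below. SLBP was at 55.0 ± 1.49, 55.4 ± 1.72 and 54.5 ± 1.99 FPKM, and NPAT at 13.1 ± 0.516, 13.0 ± 0.310 and 13.6 ± 0.369 (control, LOX siRNA, LOXL1 siRNA; SD, n = 3). SNRPB and SNRPG, Sm proteins that the U7 snRNP shares with the spliceosome, were the highest of that list with means of 228.6 and 134.7 FPKM, and also had its smallest p (SNRPB, LOX siRNA against LOXL1 siRNA, 0.12, limma adjusted p = 0.204; SNRPG, LOX siRNA against control, 0.16, limma adjusted p = 0.569).

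Most replication-independent variants are made through the cell cycle from polyadenylated mRNA; H2AFX, the H2A.X gene, which is in the list, is known to give a stem-loop mRNA as well. Of 21 listed, 18 are in the table, 12 were tested and 0 passed. H2AFZ, the H2A.Z gene, had a mean of 317.1 FPKM and H1F0, the H1.0 gene, 239.9, both above every member but HIST1H2BK. The smallest p were those of H2AFY, the macroH2A gene (LOX siRNA against LOXL1 siRNA, 0.14, limma adjusted p = 0.225), and H1FX (LOXL1 siRNA against control, -0.10, limma adjusted p = 0.427). The 18 variants summed to 1312 to 1387 FPKM per library, against 816.0 to 935.1 for the 63 members.

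Of 22 histone chaperones, 21 were tested and 0 passed. NAP1L1, which carries H2A and H2B, had a mean of 238.1 FPKM, and SSRP1 of the FACT complex 184.2. ASF1B and ASF1A, chaperones of H3 and H4, had the smallest p (ASF1B, LOX siRNA against LOXL1 siRNA, 0.11, limma adjusted p = 0.245; ASF1A, LOXL1 siRNA against control, 0.13, limma adjusted p = 0.457). All 30 S phase and DNA replication genes were tested and 0 passed. TYMS, the thymidylate synthase, had 231.7 ± 0.125, 236.2 ± 7.41 and 225.1 ± 9.0 FPKM in the 3 groups, and PCNA, the sliding clamp of replication, 213.6 ± 7.28, 222.5 ± 3.09 and 209.1 ± 4.75. MCM7 of the replicative helicase and E2F1 had the smallest p, both in LOX siRNA against LOXL1 siRNA (0.12, limma adjusted p = 0.173; 0.11, limma adjusted p = 0.249). In mean FPKM, TYMS and PCNA stood above every member but HIST1H2BK.

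As for the cells, 8 of 12 stellate and myofibroblast markers were tested. VIM was at 1490, TAGLN at 603.5 and COL1A1 at 228.5 FPKM in mean. The others tested were lower: LHX2 at 13.2, COL3A1 at 8.02, ACTA2 at 7.34, PDGFRB at 6.85 and COL1A2 at 4.04. DES, LRAT, HGF and RELN stayed under 1 FPKM. None of the 5 hepatocyte markers in the table and none of the 5 endothelial markers were tested. Of 6 macrophage markers 3 were tested, CD68 with a mean of 41.8 FPKM, CD14 with 1.86 and PTPRC with 0.944, while CD163 and MARCO were at or near 0. Of 4 cholangiocyte markers 2 were tested, SOX9 with 11.8 and KRT7 with 3.19 FPKM. None of these markers was called in any comparison. Over all genes, FPKM summed to 384881 to 396088 in a library.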

How the data were processed

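RNA of 9 LX-2 libraries was sequenced on BGISEQ-500, per the labels' protocols. The authors deposited FPKM values with 2 decimals for 17123 genes. Per the submitters' processing notes, TopHat2 2.0.10 and hg19 were used; no source used here names the FPKM tool, the annotation or the treatment of multi-mapping fragments. Positions are printed unchanged and taken as GRCh38: 60 of 63 members overlap the GENCODE v29 (GRCh38) gene of the same symbol, and the other 3 are the second rows of identical pairs.

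Members were found by symbol. The 11808 genes at 1 FPKM or above in 3 or more libraries were tested on log2(FPKM + 1), which understates changes of low genes. One limma model (limma 3.58.1, R 4.3.3, empirical Bayes with trend) held 3 groups and 6 residual degrees of freedom. Benjamini-Hochberg adjustment ran over all tested genes, at 0.05. With 3 libraries a group, exact permutation reaches no p below 0.1. A fold change is the difference between group means of log2(FPKM + 1). Tables and figures were made in Python 3.11.15.

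Named members were the 4 highest of each class, the 3 of smallest p per comparison, and the 3 on each side of a mean of 1 FPKM; named list genes were the 2 highest and the 2 of smallest p. Members named outside this rule, in the pairs, copies, overlap and length comparisons, were chosen after their values were seen. The members and lists were chosen with earlier results of these data known. Alternatives were 2 scalings, no trend, 2 filters, a pseudocount of 0.1, the compared groups alone, a replicate block, removal of the length trend (splines of 4 degrees of freedom) and each library left out; a block with the length trend removed, and identical rows kept once, were added after the data were seen. Same-numbered libraries did not deviate together (9 pairs, r from -0.068 to 0.025), which does not exclude a batch shared by number. Promoters are RefSeq's on GRCh38.p14. Depth is unknown, since the files used hold no counts.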

Additional observations from a re-analysis of the deposited data

How the results depend on the processing

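The number of members called was 0 in each comparison and stayed 0 under every alternative run for LOX siRNA against control, and in 19 of 20 for each of the other comparisons; the exception in both was the fit without LOXL1 siRNA replicate 3, which called 1 member, HIST1H2BK (-0.27 and 0.27). Of 1284 refits of 66 fold changes of named members, 1282 kept their side of the threshold and 2, those of HIST1H2BK, did not. Calls among all genes for LOX siRNA against control were 1, and 2 with no filter; with each library left out they ranged from 1 to 2. For LOXL1 siRNA against control they were 9, with 6 to 14 when each library was left out. For LOX siRNA against LOXL1 siRNA they were 25, and 11 with quantile normalization, 8 without the trend, 4 with no filter, 15 with the length trend removed, and 5 to 56 with each library left out. With the replicate number as a block that count was 15, and 13 with the block and the length trend removed. No label states that the numbers pair the libraries, and same-numbered libraries did not deviate together. The block called no member. The causes were not tested. Members reaching FPKM 1 numbered 29 (all 9 libraries) to 48 (FPKM of 0.5 in 3 libraries). Summed FPKM without HIST1H2BK was 514 in controls, 494 with LOX siRNA and 512 with LOXL1 siRNA, and with identical rows kept once 879 in controls and 860 with LOX siRNA. The members' median log2 fold change in LOX siRNA against LOXL1 siRNA turned from -0.031 to 0.0033 without LOX siRNA replicate 3 and to 0.013 without LOXL1 siRNA replicate 1.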
